A study of Mus musculus with 12 samples.

Results

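The genes described are the 9 that carry the tricarboxylic acid (TCA) cycle from citrate to succinyl-CoA, with the cytosolic forms of its enzymes: Cs, Aco1, Idh1, Idh2, Idh3a, Idh3b, Idh3g, Ogdh and Dlst. They were taken from the gene table by symbol, with the row of highest total count to be used if a symbol occurred more than once. All 9 were among the 13780 genes of the table and among the 13767 that passed the filter on low counts. RNA was sequenced from 12 samples of mouse CD8+ T cells, the lymphocytes that kill infected or transformed cells, in 3 groups of 4. Cells came from the spleens of C57BL/6J mice aged 8 to 12 weeks and were purified by positive selection on magnetic beads. Naive cells were frozen straight after isolation, without activation or treatment. Both activated groups were cultured for 72 h with beads carrying antibodies to CD3 and CD28 and with 10 U/ml of human IL-2, either in plain media or with 40 mM sodium lactate added. The control of the lactate group was plain media without added sodium chloride, so lactate, sodium and osmolality differed together between the activated groups and cannot be told apart. The naive samples came from 4 donor mice and the activated samples from 5, of which 3 gave both a media and a lactate sample.

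Citrate synthase joins acetyl-CoA to oxaloacetate, aconitase turns citrate into isocitrate, isocitrate dehydrogenases oxidise it to 2-oxoglutarate, and the 2-oxoglutarate dehydrogenase complex forms succinyl-CoA. The mitochondrial NAD-dependent isocitrate dehydrogenase is assembled from products of Idh3a, Idh3b and Idh3g, whereas Idh1 and Idh2 encode NADP-dependent enzymes of the cytosol and of the mitochondrion. In activated T cells the same metabolites also supply citrate for lipid synthesis and 2-oxoglutarate for enzymes that demethylate histones and DNA.

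Each library held between 14726904 and 21478137 counts, and levels are given as CPM, counts scaled to a common library size. The scaling used TMM factors, which remove differences in composition between libraries. Cd8a was present in every library, from 388 CPM in naive library 4 to 1208 CPM in naive library 3. The activation marker Il2ra, a subunit of the IL-2 receptor, stood between 3.61 and 22.6 CPM in naive libraries, between 403 and 716 CPM with media and between 1364 and 1768 CPM with lactate. Markers of other cells were seen in the naive libraries. The 4 myeloid markers summed to 1360, 1017, 442 and 402 CPM in naive libraries 1 to 4, with Csf1r the most abundant, and to at most 0.928 CPM in any activated library. The 4 B cell markers summed to 663, 954, 392 and 797 CPM in the naive libraries and to 5.23 to 14.7 CPM in the activated ones. The 2 red cell markers in the table, of 3 listed, summed to 475, 1736, 194 and 42.4 CPM in the naive libraries, most of it Hba-a1, and to at most 0.82 CPM after activation. The 2 natural killer cell markers were at 3.13 to 8.00 CPM in naive libraries and at most 0.717 CPM in the activated ones. Of the 2 CD4+ T cell markers, Cd4 was at 11.2 to 27.1 CPM in naive libraries and at most 0.99 CPM after activation, whereas Zbtb7b was at 14.0 to 29.2 CPM in naive and 44.2 to 88.4 CPM in activated libraries. Lyz2 and Csf1r were both at 0 in media libraries 1 and 4 and in lactate library 3. In bulk RNA, fewer cells of a type and less RNA per cell cannot be told apart, and the part of these other cells in any difference from naive was not tested.

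Lactate was compared with media to ask how the added lactate changed the transcripts of activated cells, and both activated groups were compared with naive cells for the change with activation. Of the 9 genes, 4 had higher counts with lactate than with media in the quasi-likelihood test of edgeR, called where the adjusted p did not exceed 0.01 (Cs, Aco1, Idh3a and Dlst), beside 13.9% of all tested genes. None of the 9 was lower in edgeR, beside 11.1% of all genes, while 1, Idh3g, was lower at an unadjusted p of at most 0.05 and in DESeq2, beside 23.4% and 16.8%. The likelihood ratio test and limma voom called 0 lower. With no overlap between the 4 lactate and the 4 media libraries, 5 genes were higher (the same 4 and Idh2) and 1 was lower (Idh3g), beside 23.2% and 21.5% of all genes. The median log2 fold change of the 9 was 0.34, against -0.00158 over all tested genes. Activation in media raised 3 of the 9 (Cs, Idh3b and Idh3g), beside 28.5% of all genes, and lowered 2 (Ogdh and Dlst), beside 29.0%. Activation with lactate raised 5 (Cs, Aco1, Idh3a, Idh3b and Idh3g), beside 33.0%, and lowered 0 in edgeR, at an unadjusted p and in the other 3 tools alike, beside 32.0%. For activation in media, 3 and 2 of 9 are near the shares of all genes. The 3 comparisons share their libraries in pairs, so their values stand side by side and are not independent.

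**Figure D1:**
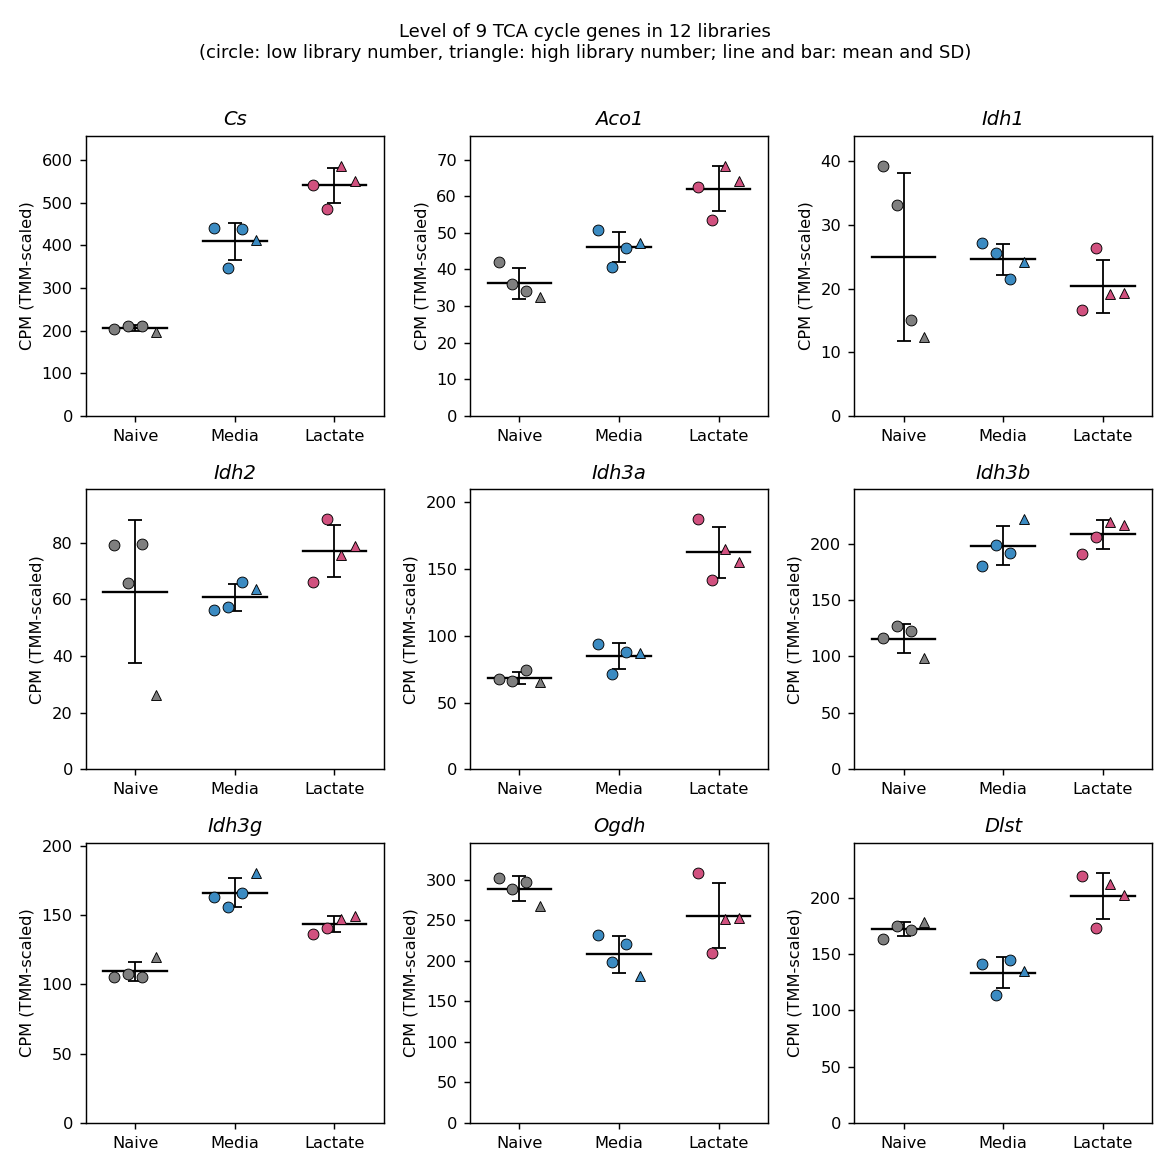
Level of each of the 9 genes in each library, in CPM scaled by TMM on the y axis, for the naive, media and lactate groups (4 libraries each; circles are libraries with low library numbers, triangles those with high ones, lines and bars the mean and SD). Idh3a has its lowest lactate library 47.9 CPM above its highest media library, Dlst falls from naive to media and stands at 201 ± 20.4 CPM with lactate, and Idh1 and Idh2 spread widely in the naive group.

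Cs, which encodes citrate synthase, the entry point of the cycle, stood at 205, 211, 210.1 and 197 CPM in naive libraries 1 to 4. It stood at 439.8, 348, 438 and 412 CPM in media libraries 1 to 4, and at 543, 486, 586 and 550 CPM in lactate libraries 1 to 4. The 3 groups did not overlap, and naive libraries lay within 14.7 CPM of each other. From media to lactate Cs rose by a log2 fold change of 0.40 ± 0.09 (SE, n = 4 in each group, edgeR adjusted p = 0.00481). From naive it rose by 0.99 ± 0.09 with media (adjusted p = 1.50e-06) and by 1.40 ± 0.10 with lactate (adjusted p = 6.46e-08). The library numbers in the labels fall into a low and a high run, and the lactate difference was 0.34 within the low and 0.46 within the high run. Within the 3 donors that gave both samples it was 0.30, 0.15 and 0.42, and with the donor as a block the fold change was 0.29 with an adjusted p of 0.0571, which missed the threshold. The call against media was also lost without media library 2 (adjusted p = 0.0128) or 4 (0.0130), or lactate library 1 (0.0117), 3 (0.0228) or 4 (0.0181).

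Aco1 encodes the cytosolic aconitase, a protein that turns into an RNA-binding regulator of iron genes when it lacks its iron-sulfur cluster. Its levels were 42.0, 36.0, 34.2 and 32.4 CPM in naive libraries 1 to 4, 50.8, 40.7, 45.9 and 47.2 CPM in media libraries and 62.6, 53.4, 68.1 and 64.0 CPM in lactate libraries. Every lactate library was above every media library, whereas media library 2 lay below naive library 1. With lactate Aco1 rose over media by a log2 fold change of 0.43 ± 0.11 (edgeR adjusted p = 0.00937), and over naive by 0.78 ± 0.11 (adjusted p = 4.01e-05). The difference between media and naive was 0.35 ± 0.11 and missed the threshold (adjusted p = 0.0138). The lactate difference was 0.34 in the low and 0.48 in the high library run, and 0.30, 0.22 and 0.44 within the 3 donors. The call against media lay close to the threshold and was lost in 14 of 26 alternatives: with the donor as a block (0.32, adjusted p = 0.106), with a term for the library run (0.0139), under 3 other scalings (0.0133 to 0.0160), and in 9 fits without 1 library. Those left out naive library 2 or 3, any of the media libraries, or lactate library 1, 3 or 4, with adjusted p from 0.0111 to 0.0356. The ratio of Aco1 to Cs in TPM, which corrects for gene length, was 0.145 ± 0.00712 (SD) with media and 0.147 ± 0.00403 with lactate, and the groups overlapped. The log2 count ratio differed by 0.02 (exact permutation p = 0.629). In naive cells the TPM ratio was 0.226 ± 0.0255, and all 4 naive libraries were above all 8 activated ones.

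Idh1, the cytosolic NADP-dependent isocitrate dehydrogenase and a source of NADPH, stood at 39.3, 33.1, 15.1 and 12.4 CPM in naive libraries 1 to 4. In activated cells it stood at 27.2, 25.6, 21.5 and 24.1 CPM with media and at 16.7, 26.4, 19.1 and 19.3 CPM with lactate. Naive libraries 1 and 2 lay above, and naive libraries 3 and 4 below, every activated library. The order of the naive libraries was that of the summed myeloid markers. It was not that of the B cell, red cell, natural killer cell or CD4+ T cell sums, and the match was not tested. The fold change of Idh1 between lactate and media was -0.27 ± 0.31 (edgeR adjusted p = 0.522), with overlapping groups. Within the 3 donors the lactate difference was -0.71, 0.29 and -0.32, and without 1 library the fold change ran from -0.42 to -0.19. Against naive the fold change was -0.02 ± 0.31 with media (adjusted p = 0.962) and -0.29 ± 0.31 with lactate (adjusted p = 0.411). The latter ran from -0.55 to -0.005 without 1 library. When naive libraries 3 and 4 alone stood for the naive group, a choice made after seeing the data, the value for media was 0.77 (adjusted p = 0.00651) and that for lactate 0.51 (adjusted p = 0.0421). These are the 2 naive libraries with the lowest Idh1, so the sign follows from the choice and the p-values are no test of it.

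Idh2, the mitochondrial NADP-dependent enzyme, stood at 79.2, 65.8, 79.6 and 26.2 CPM in naive libraries 1 to 4, at 56.2, 57.2, 66.0 and 63.6 CPM with media and at 66.0, 88.1, 75.6 and 78.8 CPM with lactate. Naive library 4 was far below the others, and its CD8+ T cell markers also summed to the lowest value of the 12 libraries, 1348 CPM. The lactate and media groups met at 66.0 CPM without overlapping. The fold change was 0.34 ± 0.26 against media (edgeR adjusted p = 0.32), -0.05 ± 0.26 for media against naive (adjusted p = 0.887) and 0.30 ± 0.26 for lactate against naive (adjusted p = 0.313). Without naive library 4, which is used for the spread of the model, the value for lactate against media was 0.34 (edgeR adjusted p = 0.0151). In the same fit lactate against naive gave 0.04 (adjusted p = 0.779) and media against naive -0.31 (adjusted p = 0.0245). Within donors the lactate difference of Idh2 was 0.23, 0.42 and 0.31, higher in 3 of 3.

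The transcript ratio of the 2 NADP-dependent enzymes differed between the activated groups, while neither gene alone was called in edgeR. These 2 tests differ in kind and in threshold. In an exact permutation test of log2 CPM, unadjusted, Idh2 alone gave p = 0.0286 and Idh1 p = 0.114. The TPM ratio of Idh1 to Idh2 was 0.452, 0.418, 0.304 and 0.355 in media libraries 1 to 4 and 0.236, 0.28, 0.236 and 0.228 in lactate libraries. All 4 lactate values were below all 4 media values. The log2 count ratio was lower by a difference of -0.63 (exact permutation test, two-sided, p = 0.0286, the smallest that 4 against 4 samples allow, and 0.0429 adjusted over 6 ratios). It was -0.59 in the low and -0.61 in the high library run, and -0.94, -0.12 and -0.63 within the donors. The permutation test ignores the pairing by donor. The adjusted p also rests on the ratios among the Idh3 genes, which are part of the 6 and depend on each other. When 1 lactate library was left out the difference was -0.70 to -0.60, still without overlap, with a permutation p of 0.0571 (0.0686 to 0.0857 adjusted). When 1 media library was left out it was -0.73 to -0.54, with a permutation p of 0.0286 (0.0343 to 0.0429 adjusted).

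Idh3a encodes the catalytic subunit of the NAD-dependent enzyme. It stood at 67.7, 66.0, 74.7 and 65.7 CPM in naive libraries 1 to 4, at 94.0, 71.1, 87.9 and 87.4 CPM in media libraries and at 187, 142, 165 and 156 CPM in lactate libraries. The lowest lactate library was 47.9 CPM above the highest media library, and media library 2 was within the range of the naive group. Of the 9 genes Idh3a had the largest fold change with lactate, 0.93 ± 0.11 over media on the log2 scale (1.91-fold, edgeR adjusted p = 9.83e-05), and its call was kept in all 26 alternatives. It was 0.96 in the low and 0.87 in the high library run. Within the 3 donors it was 0.99, 0.69 and 0.83, and with the donor as a block 0.84 (adjusted p = 0.00279). Activation in media alone gave 0.31 ± 0.11 (adjusted p = 0.0215), which passed the threshold only without media library 2 (0.39, adjusted p = 0.00493) or at an adjusted p of at most 0.05. Activation with lactate raised Idh3a over naive by 1.25 ± 0.11 (adjusted p = 5.53e-07).

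Idh3b encodes a subunit that is needed for the assembly and activity of the enzyme. Its levels were 116, 127, 122 and 98.2 CPM in naive libraries, 180.2, 199, 192 and 221 CPM with media and 191, 206, 219 and 217 CPM with lactate. All activated libraries were above all naive ones, and the activated groups overlapped. Activation raised Idh3b by 0.77 ± 0.10 with media (edgeR adjusted p = 1.90e-05) and by 0.84 ± 0.10 with lactate (adjusted p = 6.74e-06). The difference between lactate and media was 0.07 ± 0.10 (adjusted p = 0.605).

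Idh3g, the X-linked gene of the remaining regulatory subunit, stood at 105, 108, 105 and 119.6 CPM in naive libraries 1 to 4, at 163, 156, 166 and 180.3 CPM in media libraries and at 137, 141, 147 and 149 CPM in lactate libraries. The 3 groups did not overlap, and lactate lay between naive and media. Activation raised Idh3g by 0.60 ± 0.08 with media (edgeR adjusted p = 2.17e-05) and by 0.39 ± 0.08 with lactate (adjusted p = 0.000592). The latter call was lost without naive library 2 (0.29, adjusted p = 0.0124) or 3 (0.29, 0.0137) or lactate library 4 (0.31, 0.0105), and with naive libraries 3 and 4 alone (0.29, 0.0291). Between lactate and media the fold change was -0.21 ± 0.08 and missed the threshold (adjusted p = 0.0469). It was -0.25, -0.24 and -0.27 within the 3 donors, lower in 3 of 3, and -0.22 and -0.28 in the low and high library runs. DESeq2 gave -0.25 with an adjusted p of 0.00534.

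**Figure D2:**
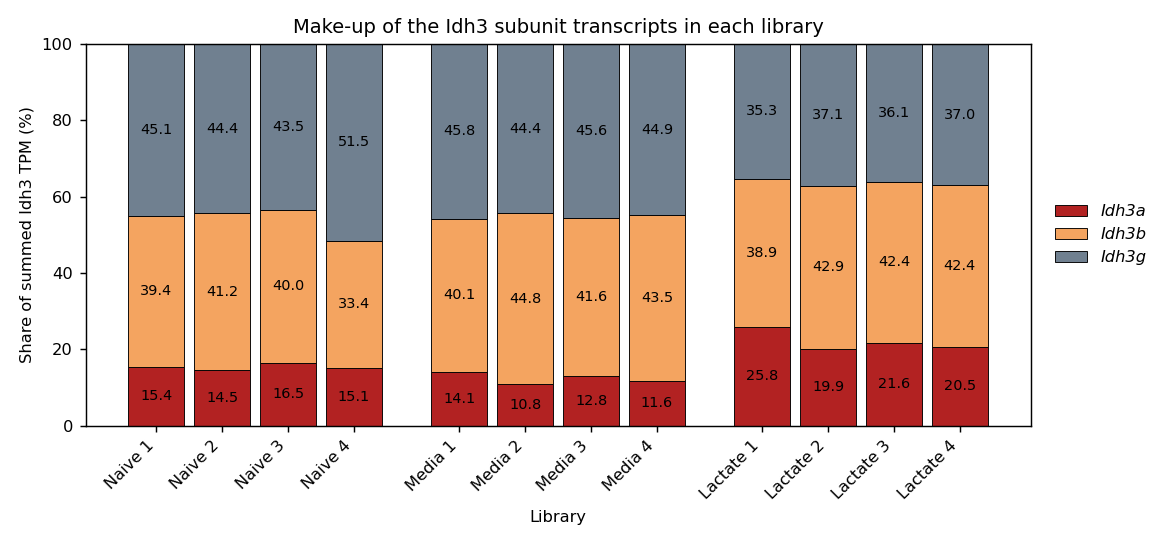
Share of each Idh3 subunit gene in the summed TPM of the 3 genes (y axis, percent), for each of the 12 libraries on the x axis. The Idh3a share is 19.9% to 25.8% in lactate libraries and at most 14.1% in media libraries, and the Idh3g share is lower in all 4 lactate libraries than in all other libraries.

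Summed over the 3 subunit genes, the transcripts of the NAD-dependent enzyme reached 299.8 ± 6.33 TPM (SD, n = 4) in naive, 471 ± 14.9 TPM in media and 460.2 ± 9.83 TPM in lactate samples, and the activated groups overlapped. The make-up of that sum differed. Idh3a made up 14.1%, 10.8%, 12.9% and 11.6% of it in media libraries 1 to 4 and 25.8%, 19.9%, 21.6% and 20.5% in lactate libraries 1 to 4. In naive libraries its share was 15.5%, 14.5%, 16.5% and 15.1%, above all media libraries and below all lactate libraries. Idh3g made up 45.2 ± 0.639% with media and 36.4 ± 0.862% with lactate, and Idh3b 42.5 ± 2.07% and 41.6 ± 1.84%. The catalytic subunit thus had the lowest of the 3 levels per length in every library.

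Ratios between subunits need no scaling of the libraries. The TPM ratio of Idh3a to Idh3g was 0.308, 0.243, 0.282 and 0.258 in media libraries 1 to 4 and 0.73, 0.537, 0.598 and 0.554 in lactate libraries. The lowest lactate value exceeded the highest media value. On the log2 scale the count ratio differed by 1.14, with an exact permutation p of 0.0286 (0.0429 adjusted over 6 ratios). The difference was 1.18 in the low run, 1.16 in the high run, and 1.25, 0.93 and 1.10 within the donors. Idh3a to Idh3b gave 0.86 (exact permutation p = 0.0286, adjusted 0.0429), with 0.91, 0.59 and 0.86 within the donors and 0.90 in each library run. Idh3b to Idh3g moved least, by 0.28 (exact permutation p = 0.0286, adjusted 0.0429), from a TPM ratio of 0.941 ± 0.0591 with media to 1.14 ± 0.0307 with lactate. In each of these ratios the groups did not overlap, and without any 1 media or lactate library they still did not, with the unadjusted permutation p at 0.0286, the smallest possible. The adjusted p was 0.0343 to 0.0429 without 1 media library. It was 0.0571 without 1 lactate library, where 3 of the 6 ratios were at the smallest p. The adjusted p depends on how many ratios reach that p, and without 1 media library 4 or 5 did. The Idh3 ratios are not independent of each other. On the log2 scale Idh3a to Idh3g (1.14) is the sum of Idh3a to Idh3b (0.86) and Idh3b to Idh3g (0.28). Counting all of them among the 6 thus bears on the adjusted p of every ratio at the smallest p, Idh1 to Idh2 included. The adjustment without Idh3a to Idh3g was not tested.

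Ogdh encodes the E1 component of the 2-oxoglutarate dehydrogenase complex, which decarboxylates the substrate. Its levels were 303, 289, 298 and 267 CPM in naive libraries 1 to 4, 232, 199, 221 and 181 CPM in media libraries and 309, 210.2, 252 and 253 CPM in lactate libraries. All media libraries were below all naive libraries, whereas lactate library 2 lay within the media range and lactate library 1 was the highest of the 12. Activation in media lowered Ogdh by a log2 fold change of -0.48 ± 0.12 (edgeR adjusted p = 0.00313). Against media, lactate gave 0.30 ± 0.12 (adjusted p = 0.0616), and against naive -0.18 ± 0.12 (adjusted p = 0.19). Within the donors the lactate difference was 0.41, -0.07 and 0.48, higher in 2 of 3.

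Dlst encodes the E2 component, the lipoylated succinyltransferase core of the same complex. It stood at 163, 175, 171 and 179 CPM in naive libraries 1 to 4, at 141, 114, 144 and 134 CPM with media and at 219, 173, 212 and 202 CPM with lactate. Media libraries were below all others, and lactate library 2 fell within the naive range. Dlst was called both lower in media than in naive cells and higher with lactate than in media. Ogdh and Idh2 had the same signs without both calls. The fold changes of Dlst were -0.37 ± 0.10 for media against naive (edgeR adjusted p = 0.00497) and 0.60 ± 0.10 for lactate against media (1.51-fold, adjusted p = 0.000618), and lactate against naive gave 0.23 ± 0.10 (adjusted p = 0.0511). The fall in media missed the threshold without media library 2 (-0.30, adjusted p = 0.0137). The lactate difference was 0.56 in the low and 0.62 in the high library run and 0.64, 0.26 and 0.59 within the 3 donors, and with the donor as a block it was 0.50 (adjusted p = 0.0149), which missed the threshold. With naive libraries 3 and 4 alone the falls in media were -0.51 for Ogdh (adjusted p = 0.0156) and -0.46 for Dlst (adjusted p = 0.0103).

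The TPM ratio of Ogdh to Dlst was 2.95 ± 0.264 (SD) in naive, 2.75 ± 0.3 in media and 2.22 ± 0.17 in lactate samples. The log2 count ratio with lactate differed from media by -0.30 (exact permutation p = 0.0571, adjusted 0.0686), with overlapping groups. Without media library 4, the sample with the lowest ratio of its group, the difference was -0.37 with an adjusted permutation p of 0.0343, the 1 of 8 such fits under the threshold. The other 7 had adjusted p from 0.0686 to 0.103. It was -0.32 in the low and -0.14 in the high library run.

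**Figure D3:**
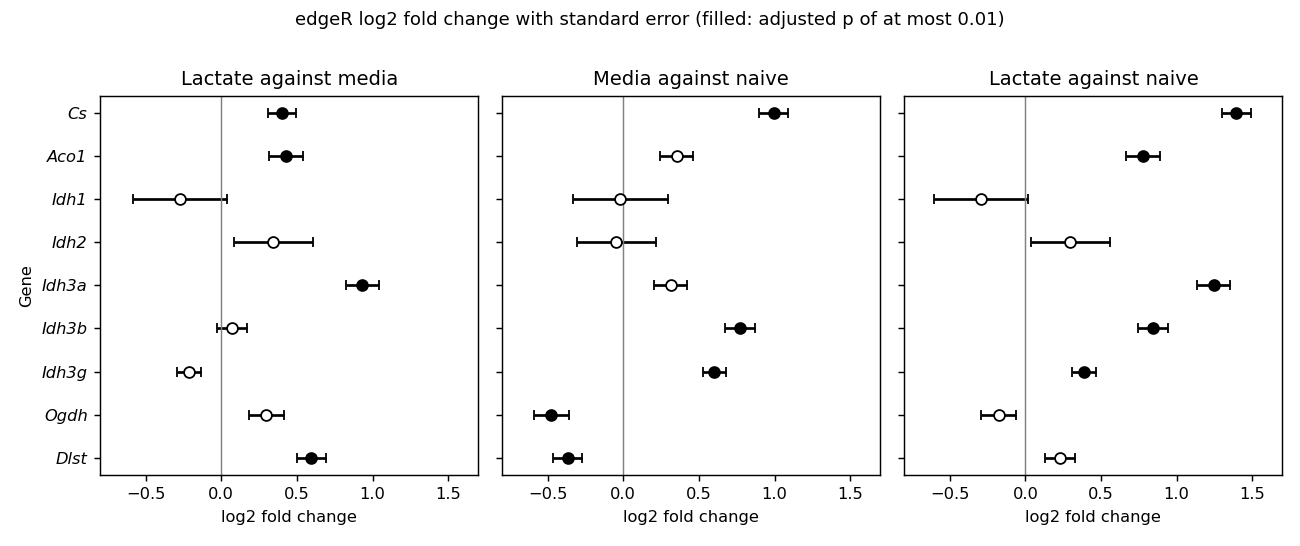
The log2 fold change of each of the 9 genes (x axis) with its standard error (bars) in the 3 comparisons, from 1 edgeR model of 12 libraries; filled points have an adjusted p of at most 0.01. Idh3a has the largest value for lactate against media (0.93), Cs the largest for both comparisons with naive (0.99 and 1.40), and Ogdh and Dlst lie below 0 for media against naive.

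With the donor, as read from the labels, as a block, which rests on the 3 donors with both samples, 1 of the 4 genes called higher with lactate, Idh3a, kept its call. Over all genes the block left 992 calls in either direction, against 3451 without it.

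Levels of different genes can be compared per length only, in TPM. In naive cells Ogdh was highest of the 9 at 181 ± 8.38 TPM (SD, n = 4), above Idh3g (138 ± 13.1 TPM) in all 4 samples, followed by Cs at 121 ± 1.74 TPM and Idh3b at 115 ± 8.83 TPM, whose ranges overlapped. Idh2 (82.1 ± 32.3 TPM), Dlst (61.4 ± 3.60 TPM) and Idh3a (46.1 ± 3.09 TPM) came next, and Idh1 (30.5 ± 15.9 TPM) and Aco1 (27.4 ± 3.09 TPM) overlapped in range. The range of Idh2 also overlapped those of Idh3b and Dlst, and the range of Idh3a that of Idh1. In naive library 4 Idh2 was at 36.1 TPM, below Dlst (66.7 TPM) and Idh3a (46.2 TPM). In media Cs was first at 246 ± 28.1 TPM, ahead of Idh3g (213 ± 7.79 TPM) and Idh3b (200.3 ± 11.1 TPM), with overlapping ranges between neighbours. Ogdh followed at 133 ± 18.2 TPM and lay below Idh3b in all samples. With lactate Cs reached 295 ± 17.8 TPM and exceeded the next gene, Idh3b at 192 ± 4.58 TPM, in every sample. Idh3a was at rank 6 with media (58.2 ± 7.06 TPM) and at rank 5 with lactate (101 ± 14.5 TPM), where its range overlapped that of Idh2 (93.99 ± 11.3 TPM). Idh1 was last in both activated groups, at 30.8 ± 3.45 TPM with media, where its range overlapped that of Aco1, and at 23.2 ± 5.11 TPM with lactate. The 9 genes summed to 803 ± 44.6 TPM in naive, 1046 ± 55.5 TPM in media and 1130 ± 48.9 TPM in lactate samples.

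Likeness of pattern was measured as the root mean square difference of log2 CPM over the 12 libraries, each gene centred on its mean. Among the 9, Ogdh and Dlst were closest to each other (0.21), followed by Idh3b and Idh3g (0.23), and Idh1 and Idh3a were farthest apart (0.79). Among 9233 other genes with a mean of at least 10 CPM, the closest to Cs was Atp5b (0.05), which encodes the beta subunit of the mitochondrial ATP synthase. The closest to Idh3a was Psmd3 (0.08), a proteasome subunit, and to Dlst Thoc5 (0.06), a subunit of the THO complex of mRNA export. Idh2 was nearest to Acaa2 (0.12), a thiolase of mitochondrial fatty acid oxidation, Aco1 to Tmem209 (0.10), Idh3b to the RNA polymerase II subunit gene Polr2d (0.08) and Idh3g to Cfap36 (0.07). Ogdh was nearest to Smarcad1 (0.09), a chromatin remodeller, and Idh1 had no closer gene than 4931406C07Rik (0.18).

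The rest of the cycle was described by a list of 14 genes, of which 13 were tested. With lactate 8 of the 13 were higher than in media and 0 lower in edgeR, at an unadjusted p of at most 0.05 (11 higher, 0 lower) and in the other 3 tools, and the median log2 fold change was 0.53. For this list and those that follow, the shares over all tested genes are 13.9% higher and 11.1% lower in edgeR, and 24.8% and 23.4% at an unadjusted p. They are 16.3% and 14.5% in the likelihood ratio test, 16.3% and 16.8% in DESeq2 and 14.6% and 10.7% in limma voom. Among those higher were Suclg1 (0.83 ± 0.10, adjusted p = 0.000127), a subunit of the enzyme that uses succinyl-CoA, Mdh2 (0.57 ± 0.10), the mitochondrial malate dehydrogenase, and Fh1 (0.57 ± 0.10), fumarase. With the donor as a block 1 of the 13, Suclg1, kept its call (0.75, adjusted p = 0.00534). The lists that follow were not counted with this block, so their counts leave the pairing by donor out.

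Of 13 tested genes that bring pyruvate into the cycle ahead of Cs, 4 were higher with lactate and 1 was lower in edgeR. The other 3 tools called 5 higher each, and 3 (likelihood ratio test), 4 (DESeq2) and 1 (limma voom) lower, and at an unadjusted p 6 were higher and 5 lower. The E2 gene of the pyruvate dehydrogenase complex, Dlat (0.69 ± 0.11), its binding protein Pdhx (0.54 ± 0.12) and the pyruvate carrier Mpc2 (0.47 ± 0.10) rose, and Pdk2 (-2.26 ± 0.34, edgeR adjusted p = 0.000321), a kinase that inhibits the complex, fell from 5.18 to 10.7 CPM with media to 1.08 to 2.60 CPM with lactate. Of 6 genes of citrate export, acetyl-CoA formation and fatty acid synthesis, 0 were higher, also at an unadjusted p and in the other 3 tools, and 2 were lower, the acetyl-CoA synthetase genes Acss1 (-1.08 ± 0.14, mitochondrial) and Acss2 (-0.95 ± 0.21, cytosolic). Of 8 genes that make or attach lipoate, the cofactor carried by the Dlst product, 6 were higher and 0 lower in edgeR and in the other 3 tools, with 7 higher and 0 lower at an unadjusted p. They included Lipt2 (1.59 ± 0.25), the glutaredoxin gene Glrx5 (1.04 ± 0.21), the lipoate synthase gene Lias (0.78 ± 0.11) and Mecr (0.72 ± 0.16). Lipt2 was at a low level, 0.655 to 1.20 CPM with media and 2.51 to 3.47 CPM with lactate.

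Of 6 tested genes of other NADPH sources, beside Idh1 and Idh2, 3 were higher and 0 lower in edgeR and in the other 3 tools, with 4 higher and 0 lower at an unadjusted p. The 3 were Mthfd1 (1.18 ± 0.23) and Mthfd2 (0.80 ± 0.14) of folate metabolism and Pgd (0.69 ± 0.09) of the pentose phosphate pathway. Of 9 tested genes around 2-oxoglutarate, the product of the isocitrate dehydrogenases, 3 were higher and 0 lower in edgeR. The other 3 tools called 4 or 5 higher and 0 lower, and at an unadjusted p 5 were higher and 1 lower. The 3 in edgeR were the transaminase genes Gpt2 (1.49 ± 0.24), Psat1 (0.85 ± 0.15) and Got2 (0.47 ± 0.10). Of 13 genes of iron-sulfur clusters and of transcripts bound by the iron regulatory proteins, to which the Aco1 product belongs, 1 was higher, the scaffold gene Iscu (0.87 ± 0.12), and 1 lower, the co-chaperone gene Hscb (-0.86 ± 0.14), counts in edgeR that are below the shares of all genes. At an unadjusted p 5 were higher and 1 lower, and DESeq2 called 2 higher.

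The 9 genes lie on 9 chromosomes. In GRCm38 coordinates Cs spans chromosome 10 from 128337734 to 128362479 on the plus strand, Aco1 chromosome 4 from 40143081 to 40198338 (plus), and Idh1 chromosome 1 from 65158616 to 65186500 (minus). Idh2 spans chromosome 7 from 80094846 to 80115392 (minus), Idh3a chromosome 9 from 54586334 to 54604661 (plus), and Idh3b chromosome 2 from 130279309 to 130284547 (minus). Idh3g spans X from 73778963 to 73786897 (minus), Ogdh chromosome 11 from 6291633 to 6356642 (plus), and Dlst chromosome 12 from 85110833 to 85134845 (plus). All are protein-coding. Of Idh3b, 5 exon bases (0.15%) overlap Nop56 on the opposite strand, and the reads of both genes in those bases cannot be told apart, since the sources used here do not say whether counting used strand. The exons of the other 8 overlap no other gene of the annotation.

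Promoter windows, 250 bases before to 50 after the start, were taken from RefSeq (GRCm38.p6) and searched on both strands for the letters of 7 motifs. Entries were found for 8 of the 9 genes, all but Idh3a, with 1 window for most, 2 for Idh1 and 6 for Ogdh. The windows of the 3 matched genes that were higher with lactate are shown, Cs at chr10:128337477-128337776, Aco1 at chr4:40143015-40143314 and Dlst at chr12:85110583-85110882, all on the plus strand. Capitals mark GGGCGG, the box bound by SP factors, or its reverse complement CCGCCC and, in Cs, CCAAT.
Cs: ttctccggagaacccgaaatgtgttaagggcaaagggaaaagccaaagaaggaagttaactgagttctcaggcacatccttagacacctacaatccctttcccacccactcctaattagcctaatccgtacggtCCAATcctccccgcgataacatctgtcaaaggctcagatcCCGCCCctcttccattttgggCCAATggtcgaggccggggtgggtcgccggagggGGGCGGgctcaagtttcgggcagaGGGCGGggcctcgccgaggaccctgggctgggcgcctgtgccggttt
Aco1: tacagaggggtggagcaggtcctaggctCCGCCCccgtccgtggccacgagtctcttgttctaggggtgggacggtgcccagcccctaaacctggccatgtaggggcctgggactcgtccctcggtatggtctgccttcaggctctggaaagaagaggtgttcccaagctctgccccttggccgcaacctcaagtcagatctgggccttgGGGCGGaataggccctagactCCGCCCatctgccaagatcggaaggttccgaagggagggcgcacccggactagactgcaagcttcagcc
Dlst: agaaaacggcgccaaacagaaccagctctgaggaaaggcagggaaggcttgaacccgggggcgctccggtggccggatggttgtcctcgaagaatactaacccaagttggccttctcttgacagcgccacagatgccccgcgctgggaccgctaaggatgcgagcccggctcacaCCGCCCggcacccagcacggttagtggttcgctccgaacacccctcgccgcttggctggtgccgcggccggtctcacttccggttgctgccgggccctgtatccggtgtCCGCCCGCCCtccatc
Each of these windows holds the SP letters 3 times, and 2 of the matches in Dlst overlap by 2 bases. Cs has them at -76, -21 and 4 from the start, Aco1 at -222, -40 and -19, and Dlst at -75, 35 and 39. The same letters occur in 35.7% of the 32851 windows of the table, and also in windows of Idh1, Idh2 and Ogdh, which were not called with lactate. The GC content of the windows was 58.7% for Cs, 63.0% for Aco1 and 65.7% for Dlst, against a median of 52.7%. CCAAT, found in 37.4% of all windows, was in Cs, Idh1, Idh2, Idh3b and Ogdh. The hypoxia response core GCGTG (32.4% of windows) was in Idh1, Idh2, Idh3g and Ogdh and not in the windows of Cs, Aco1, Idh3b or Dlst. The E-box CACGTG (7.15%), the cyclic AMP element TGACGTCA (1.79%), the AAGGTCA site of estrogen-related receptors (4.72%) and the NRF1 core GCGCATGCG (1.75%) were found in windows of Ogdh alone among the 8. In 1 Ogdh window 1 base separates the E-box from the hypoxia core. A match describes the letters of a window and was not tested for binding.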

How the data were processed

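RNA-seq was measured in 4 naive, 4 media and 4 lactate libraries. According to the methods and processing notes, the authors made reads with bcl2fastq 2.20.0.422, aligned them to GRCm38 with STAR 2.7.5b, dropped PCR duplicates and used featureCounts to count reads over exons, and the deposited table holds these raw counts with gene lengths. Every sample column was used. The filter required 1 CPM in 3 libraries or more, and 13 genes failed it. TMM scaling and 1 quasi-likelihood model of 3 groups (edgeR 4.0.16 in R 4.3.3) gave two-sided p-values, adjusted by Benjamini-Hochberg over 13767 genes, and called at 0.01 or below. A standard error was taken as the absolute fold change (log2) divided by the root of F. TPM used the lengths of the table. The 6 ratios had exact two-sided permutation tests over 70 arrangements and a threshold of 0.05 after adjustment. These arrangements ignored the pairing by donor. The ratios among the Idh3 genes were adjusted as separate tests, although they depend on each other. Likeness used log2 CPM with a prior count of 2. Models and tests were checked on simulated data. Tables and figures were made in Python 3.11.15 with pandas 2.3.3, numpy 2.4.6 and matplotlib 3.10.9. Coordinates came from GENCODE M21, whose exon lengths equal the table's for all 9 genes.

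Donors were read from the labels by taking the donor tags to restart between the low and high library numbers. This gives the 5 donors stated, but the labels do not say that tags restart, and the donor block and every value within donors rest on this reading. Deviations from the group means correlated at 0.374, 0.211 and 0.553 across genes between media and lactate samples of 1 donor, and at 0.374, 0.297, 0.0038 and 0.553 between samples with the same title number. Pairs of different donors ranged from -0.441 to 0.372, the highest within the high library run and above 1 of the 3 pairs of the same donor. The 3 values are all above 0.1, so samples were taken as paired by donor, and the title numbers do not all follow the donors as read. The alternatives were DESeq2 1.42.0, limma 3.58.1 (voom), edgeR's likelihood ratio test, 3 other scalings, 2 other filters, a fit of only the groups compared, a block by donor or by title number, a term for the library run, an adjusted p of 0.05 and leaving out each library. Naive libraries 3 and 4 alone were added after seeing the data.

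The 9 genes and the lists were chosen with earlier results of these data known. In each list every gene was counted, and those named had an adjusted p within the threshold for lactate against media and were among the 4 largest fold changes of the list. For likeness the 1 closest gene was named.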

Additional observations from a re-analysis of the deposited data

Results flagged for a closer look

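Each group of 4 libraries was searched for a library far from the rest, with a gap to its nearest neighbour above 0.829 of the range of the group. Chance gives about 1 such case in 20 groups, and 4 were found among 51. In the naive group the log2 count ratio of Idh1 to Idh2 was -2.40 in library 3 and -1.08 to -0.99 in the other libraries, a gap of 0.935 of the range. Naive library 3 had Idh2 at 79.6 CPM, like library 1, and Idh1 at 15.1 CPM, near library 4. In the lactate group the same ratio was -1.74 in library 2 and -2.03 to -1.98 in the others (0.836), with Idh1 highest there at 26.4 CPM. The ratio of Idh3b to Idh3g was -0.28 in naive library 4 and 0.15 to 0.23 in the other naive libraries (0.829), a value that lies at the limit and is under the limit without truncation, 0.82975. That library had the lowest Idh3b and the highest Idh3g of its group. The ratio of Aco1 to Cs was -3.19 in lactate library 2 and -3.12 to -3.10 in the other lactate libraries (0.851), a span of under 0.1 on the log2 scale.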

How the results depend on the processing

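Directions and calls of the 9 genes for lactate against media were compared over 26 alternatives. No direction turned, and Idh3a kept its call in all 26, Dlst in 25, Cs in 20 and Aco1 in 12. The number of the 9 called higher was 1 with the replicate block by donor, where the number of other cycle genes called higher was also 1, and ran from 2 to 4 without 1 library. It was 2 without media library 2 or 4 or lactate library 1, 3 or 4. The block by title number, whose numbers do not all follow donors, left 4. The number called lower was 1 (Idh3g) in DESeq2, beside 16.8% of all genes, and 1 at an adjusted p of 0.05. At that threshold the share of all genes lower lies between 11.1% (adjusted p of 0.01) and 23.4% (unadjusted p of 0.05). For media against naive 5 were higher at an adjusted p of 0.05, and from 3 to 5 without 1 library, with 5 without media library 2. The number lower ran from 1, without media library 2, to 2, and was 0 with naive libraries 3 and 4 alone, which leaves 2 naive samples. For media against naive at an adjusted p of 0.05, the share of all genes higher lies between 28.5% (adjusted p of 0.01) and 34.8% (unadjusted p of 0.05). Without media library 2, 7467 of 13715 genes were called in either direction for that comparison. Shares by direction without 1 library are not given. The cause of the changes in these counts was not tested, beyond the fewer samples or donors in each fit.

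Without 1 library the log2 ratio for lactate against media ran from -0.73 to -0.54 for Idh1 to Idh2, 0.75 to 0.95 for Idh3a to Idh3b, 1.05 to 1.20 for Idh3a to Idh3g, 0.25 to 0.32 for Idh3b to Idh3g, -0.37 to -0.25 for Ogdh to Dlst and -0.015 to 0.0401 for Aco1 to Cs, which turned without media library 3. Ogdh to Dlst was -0.14 within the high library run, which has 1 media library. Within donors, the block for these ratios, the means were -0.57, 0.79, 1.09, 0.31, -0.22 and 0.03 in the same order.

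Uncalled values near 0 turned for media against naive. Idh1 was 0.16 in limma voom, 0.087 with the block by title number, 0.0304 with the run term, 0.77 with naive libraries 3 and 4 alone and from -0.27 to 0.27 without 1 library, and Idh2 0.076, 0.011, 0.0096, 0.13 and -0.31 to 0.069. For lactate against naive Idh1 was 0.51 with naive libraries 3 and 4 alone. Under the other scalings the median of all genes for lactate against media was no further from 0 than -0.0418 (log2). Depth was 14726904 counts or more in each library. The samples of 1 donor share a mouse, 3 donors carry the paired comparison, and RNA levels say nothing of enzyme activity or flux, which were not analysed here.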

Other observations

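Within groups, the libraries differed across several of the 9 genes at once. Naive library 4, the 1 naive library with a high library number, had the lowest level of 7 of the 9 in its group (Cs, Aco1, Idh1, Idh2, Idh3a, Idh3b and Ogdh) and the highest of Idh3g and Dlst. Media library 2 was lowest in 5 (Cs, Aco1, Idh3a, Idh3g and Dlst) and highest in 0. Lactate library 2 was lowest in 5 (Cs, Aco1, Idh3a, Ogdh and Dlst) and highest for Idh1 and Idh2, while lactate library 1 was lowest for Idh1, Idh2, Idh3b and Idh3g and highest for Idh3a, Ogdh and Dlst. Among the lactate libraries, the 2 with Idh1 and Idh2 at their extremes were thus also at the extremes of Idh3a and Ogdh, in the opposite direction.

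The share of Cs in the summed TPM of the 9 genes was 14.3% to 16.2% in naive, 21.6% to 24.7% in media and 25.0% to 27.3% in lactate libraries, with no overlap between the groups. In the comparison of lactate with naive cells, all 13 tested genes of the rest of the cycle were higher and 0 lower in edgeR, at an unadjusted p and in the other 3 tools, beside 33.0% and 32.0% of all genes in edgeR and 38.3% and 37.9% at an unadjusted p. Their median log2 fold change was 1.14. Of the 9 genes, 5 were higher in edgeR, with a median of 0.39. Of the genes around 2-oxoglutarate, Gpt2, a mitochondrial transaminase, stood at 1.85 CPM on average in naive, 35.8 in media and 100.4 in lactate samples, and Psat1, of serine synthesis, at 30.9, 366 and 660.1 CPM.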
